A study of Mus musculus with 6 samples.

Results

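The nuclear receptor superfamily was followed through liver and liver tumour of mice with and without the constitutive androstane receptor (CAR), which is encoded by Nr1i3. Of 46 receptor genes listed by symbol, 36 had a probe that the array's accession or the symbol in its description tied to the gene, out of 9480 genes named in this way on the array. Each of the 36 had 1 such probe, 35 matched by accession and Nr5a1 by symbol, and all 36 passed the filter on dim probes. Another 8 receptors (Nr1i2, Nr2c2, Nr1d1, Esrrb, Nr2e1, Rarb, Rorb and Thra) had a probe that only the words of its description tied to the gene. These probes, with a second one for Nr1i3, made 10 probes that were described but kept out of every count. No probe was found for Ppard and Nr3c2.

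Nuclear receptors are transcription factors that bind DNA through zinc fingers and are switched by small lipophilic ligands such as steroids, retinoids, thyroid hormone, bile acids, fatty acids and drugs. Many of them bind as partners of the retinoid X receptors (RXR), recruit coactivators when a ligand is present, and recruit corepressors when it is not. In the liver they set the programmes of drug metabolism, bile acid synthesis, lipid handling and gluconeogenesis. CAR is held in the cytoplasm with heat shock protein partners and enters the nucleus after phenobarbital (PB), where it induces cytochrome P450 genes. In mice PB promotes liver tumours after the carcinogen diethylnitrosamine (DEN).

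All RNA came from mice of the C3H/HeNCrlBR(C3He) background at 39 weeks of age that had received DEN. PB, where given, was in the drinking water. The 4 groups were liver of wild-type (WT) mice given both agents, liver of CAR-knockout (CAR-KO) mice given both agents, CAR-KO liver from mice given DEN only, and tumours of WT mice given both agents. Unless DEN only is named, CAR-KO liver here means the group given both agents. They were hybridised on 6 Agilent 2-colour arrays as 3 dye-swapped pairs, WT liver against CAR-KO liver, CAR-KO liver with PB against CAR-KO liver without it, and WT tumour against CAR-KO liver, so that CAR-KO liver with PB lay on all 6 arrays. The sex of the mice, their number, any pooling and the construction of the knockout allele are not given in the sources used here. Ratios are given as log2 with every array turned so that the group named first is the numerator. SE is limma's moderated standard error, from 1 variance per probe estimated over all 6 arrays, so it is not the spread of a single pair. The n beside it is the number of arrays in the pair, and adjusted p is the Benjamini-Hochberg value over all probes tested. A probe with an adjusted p under 0.05 was said to pass. The labels do not say whether the arrays of a pair held separate extracts, so these p-values measure only the spread between dye-swapped arrays over all 3 pairs, which may be technical.

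The median local background lay between 53 and 62 intensity units, except on array 2 of the tumour pair, where it was 288 in Cy3 and 299 in Cy5. Across all probes the turned ratios of the 2 arrays correlated at r = 0.029 for WT liver, -0.347 for PB in CAR-KO liver and 0.391 for the tumour, and at 0.217, 0.169 and 0.648 once the dye effect of each probe had been taken out. Over the 36 receptors the same values were 0.336, -0.056 and 0.467 before and 0.367, 0.424 and 0.626 after. The number of arrays limits the precision. Of the hepatocyte markers Apoa1, Ttr, Cyp2e1 and Hnf4a, each was well above background in 12 of 12 channels. In tissue RNA of this kind, fewer cells of a type and less RNA per cell cannot be told apart.

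Of the 36 receptors only Nr1i3 passed in any of the 4 comparisons. It was higher in WT tumour over CAR-KO liver, where 3.36% of all probes passed and 2.53% passed as higher. Nr1i3 is the gene knocked out in the CAR-KO mice, so genotype and tissue state cannot be told apart in this ratio. In tumour over WT liver, taken indirectly, Nr1i3 did not pass (1.02, limma adjusted p = 0.327). Its level is printed first because the design turns on it. On the normalised log2 scale of single channels, its accession-matched probe read 7.95 and 7.94 in WT liver and 8.28 and 8.82 in WT tumour. The 6 channels of CAR-KO liver given both agents ran from 6.57 to 7.46, with a mean of 6.93, and the DEN-only channels read 6.93 and 6.45. Both WT liver channels and both tumour channels lay above all 8 CAR-KO channels.

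The Nr1i3 ratio of WT tumour over CAR-KO liver was 1.71 and 1.90 on the 2 arrays, a mean of 1.81 ± 0.16 (SE, n = 2), or 3.50-fold, with a limma adjusted p-value of 0.00194 and a 95% confidence interval of 1.43 to 2.18. With only the arrays of the tumour pair in the fit and no dye effect its adjusted p was 0.0503, and with the signals processed by the Agilent software it was 0.127. In WT liver over CAR-KO liver the ratio was 1.08 and 0.49, a mean of 0.79 ± 0.16 (SE, n = 2) or 1.72-fold, which did not pass (limma adjusted p = 0.412). Without either tumour array that adjusted p was 0.029, and with array weights it was 0.0307. The ratio of PB over no PB in CAR-KO liver was 0.07 and 0.31, a mean of 0.19 ± 0.16 (SE, n = 2, adjusted p = 1). The arrays of the WT liver pair lay farther apart than those of the other pairs. Tumour was set against WT liver indirectly, through the CAR-KO liver common to both, and that log2 difference was 1.02 ± 0.23 (SE), with an adjusted p of 0.327. Without array 2 of the tumour pair it was 1.14, and over the 14 alternative analyses that gave this difference it ran from 0.49 to 1.24.

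The second Nr1i3 probe, named CAR only by its description, did not show this pattern. Its ratios were 0.27 and 0.38 in WT liver over CAR-KO liver (limma adjusted p = 1) and -0.08 and -0.16 for PB in CAR-KO liver. In the tumour pair they were -0.41 and 0.25, a mean of -0.08 ± 0.19 (SE, n = 2, adjusted p = 0.829). Its 12 channels ran from 6.27 to 7.25 and the groups overlapped. The files do not place either probe on the gene or relative to the deleted part, so neither checks the genotype, and the 2 probes disagree in the tumour comparison.

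**Figure D1:**
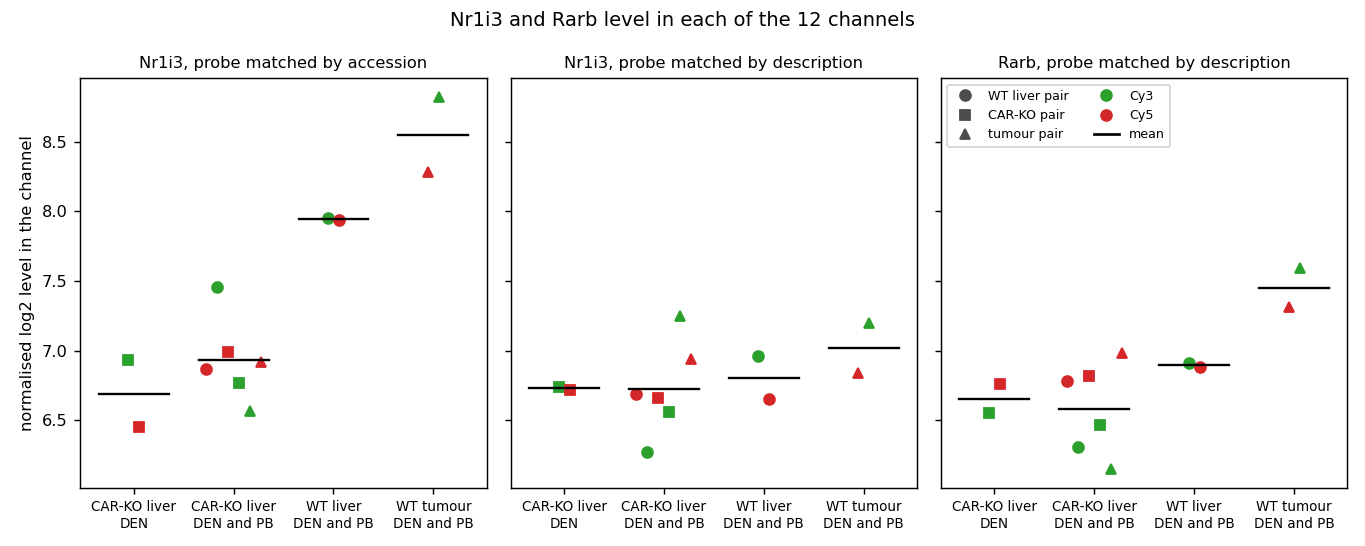
Normalised log2 level (y axis) in each of the 12 channels for the 2 Nr1i3 probes and the Rarb probe, by group on the x axis. Marker shape gives the array pair, colour the dye, and the line the mean of a group. The accession-matched Nr1i3 probe lies at 7.94 to 8.82 in WT liver and tumour and at 6.45 to 7.46 in CAR-KO liver, while the second probe overlaps between groups.

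The promoter of Nr1i3 is shown because this gene alone passed, and that of Rarb because its description-matched probe passed in the tumour as described below. Both are the 250 bases before the annotated start, from RefSeq on build GRCm38.p6, written along the gene's own strand. Capitals mark a direct repeat, GGTTCA followed on the same strand by AGTTCA with 5 bases between them, of the kind that retinoic acid receptors are known to bind.
Nr1i3 (chr1:171213720-171213969, + strand): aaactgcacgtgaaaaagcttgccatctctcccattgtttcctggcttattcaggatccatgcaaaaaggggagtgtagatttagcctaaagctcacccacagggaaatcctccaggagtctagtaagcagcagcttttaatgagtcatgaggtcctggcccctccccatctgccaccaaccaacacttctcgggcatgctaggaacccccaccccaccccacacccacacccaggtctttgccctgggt
Rarb (chr14:16575477-16575726, - strand): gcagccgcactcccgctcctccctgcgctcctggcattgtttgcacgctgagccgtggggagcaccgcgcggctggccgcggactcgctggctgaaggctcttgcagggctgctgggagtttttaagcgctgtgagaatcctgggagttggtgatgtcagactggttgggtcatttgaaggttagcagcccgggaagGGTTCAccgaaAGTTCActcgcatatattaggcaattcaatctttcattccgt

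The capitals in the Rarb promoter lie 53 to 37 bases before the start. Searched on both strands, this repeat occurred in 2 of 32851 promoters of 250 bases in the table (0.00609%), 1 of which is Rarb. The letters searched are those of the Rarb repeat itself, so a match in Rarb was given from the start. Direct repeats of other half-sites were not searched, so the share does not say how rare such sites are. The half-site AGGTCA occurred in 4607 of them (14%) and in 11 of the 63 promoters listed for 42 of the 46 receptor genes (17.5%), while AGTTCA was found in 11.8% and 12.7% and the related GGTTCA in 8.85% and 7.94%. The last 2 half-sites are the capitals of the Rarb repeat. None of the 3 half-sites was found in the printed Nr1i3 window, which says only that these letters are not there.

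In WT liver over CAR-KO liver, both with PB, 0 of the 36 receptors passed, where 0.101% of all probes did (21 of 20743). At an unadjusted p under 0.05 the count was 2 of 36 (Nr1i3 and Esr2), against 2.27% of all probes. The median ratio of the receptors was -0.02 and that of all probes -0.015, and the receptors other than Nr1i3 lay between -0.38 (Ppara) and 0.42 (Esr2). The median size of the ratio, sign ignored, was 0.06 in the receptors and 0.09 in all probes. Nr1i3 was the 1 receptor whose arrays had the same sign with a mean of at least 0.5 in size, which held for 1.34% of all probes.

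In CAR-KO liver with PB over without it, 0 of the 36 receptors passed, and 0% of all probes did by limma. At an unadjusted p under 0.05, 2 of 36 receptors were counted (Ppara and Nr2f6), against 565 of 20742 probes (2.72%). The median ratio was 0.06 in the receptors and -0.008 in all probes. Nr2f6 was the 1 receptor whose arrays had the same sign with a mean of at least 0.5 in size, which held for 0.67% of all probes. The spread between the arrays of this pair was wide. The channel of array 2 that held the DEN-only RNA gave the lowest of the 12 levels for 12 of the 36 receptors, among them Nr1h4, Nr1h3, Nr1h2, Ppara, Nr2f6 and Esrra, and the highest for 5. That channel was the dimmest of the 12, with a median signal of 129.4 and 84.4% of spots well above background. The same count was not made over all probes, so it cannot be read as a trait of the receptors.

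In WT tumour over CAR-KO liver, 1 of the 36 receptors passed, 2.78%, against 3.36% of all probes (698 of 20744). At an unadjusted p under 0.05 there were 7 of 36 (Nr1i3, Nr1h2, Pparg, Nr2f2, Esr1, Nr4a2 and Nr5a1), 19.4% against 23.4%. The median ratio was -0.12 in the receptors and -0.006 in all probes, with 12 of the 36 above 0 against 49.4% of all probes. Of the 36, 15 lay above 0 in WT liver over CAR-KO liver and 23 for PB in CAR-KO liver, where 45% and 47.7% of all probes did. The arrays had the same sign and a mean of at least 0.5 in size for 5 receptors, 13.9% against 15.5% of all probes. By passing, by unadjusted p and by the size rule, the receptors' share in tumour lay close to that of all probes. Their share above 0 was lower than that of all probes in tumour and higher for PB in CAR-KO liver, a difference that was not tested. Without array 2 of the tumour pair, 7 receptors passed (Nr1i3, Esr1, Nr2f2, Nr4a2, Nr5a1, Pparg and Rora), where 22.7% of all probes did, and with median centring 6 passed (Nr1i3, Nr1d2, Nr1h2, Nr1h4, Pgr and Pparg), where 20% of all probes did. This comparison differs in genotype and in tissue state together, and the 2 cannot be told apart in it.

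In WT tumour over WT liver, taken indirectly, 0 of 36 receptors and 0% of all probes passed by limma, while 3 of 36 receptors (Nr1i3, Nr1h2 and Nr2f2) and 1737 probes (8.37%) had an unadjusted p under 0.05. The median was -0.09 in the receptors and -0.007 in all probes. Without array 2 of the tumour pair 6 receptors passed, where 10.4% of all probes did. The 4 comparisons share the CAR-KO liver with PB, so their values are set side by side and not correlated.

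**Figure D2:**
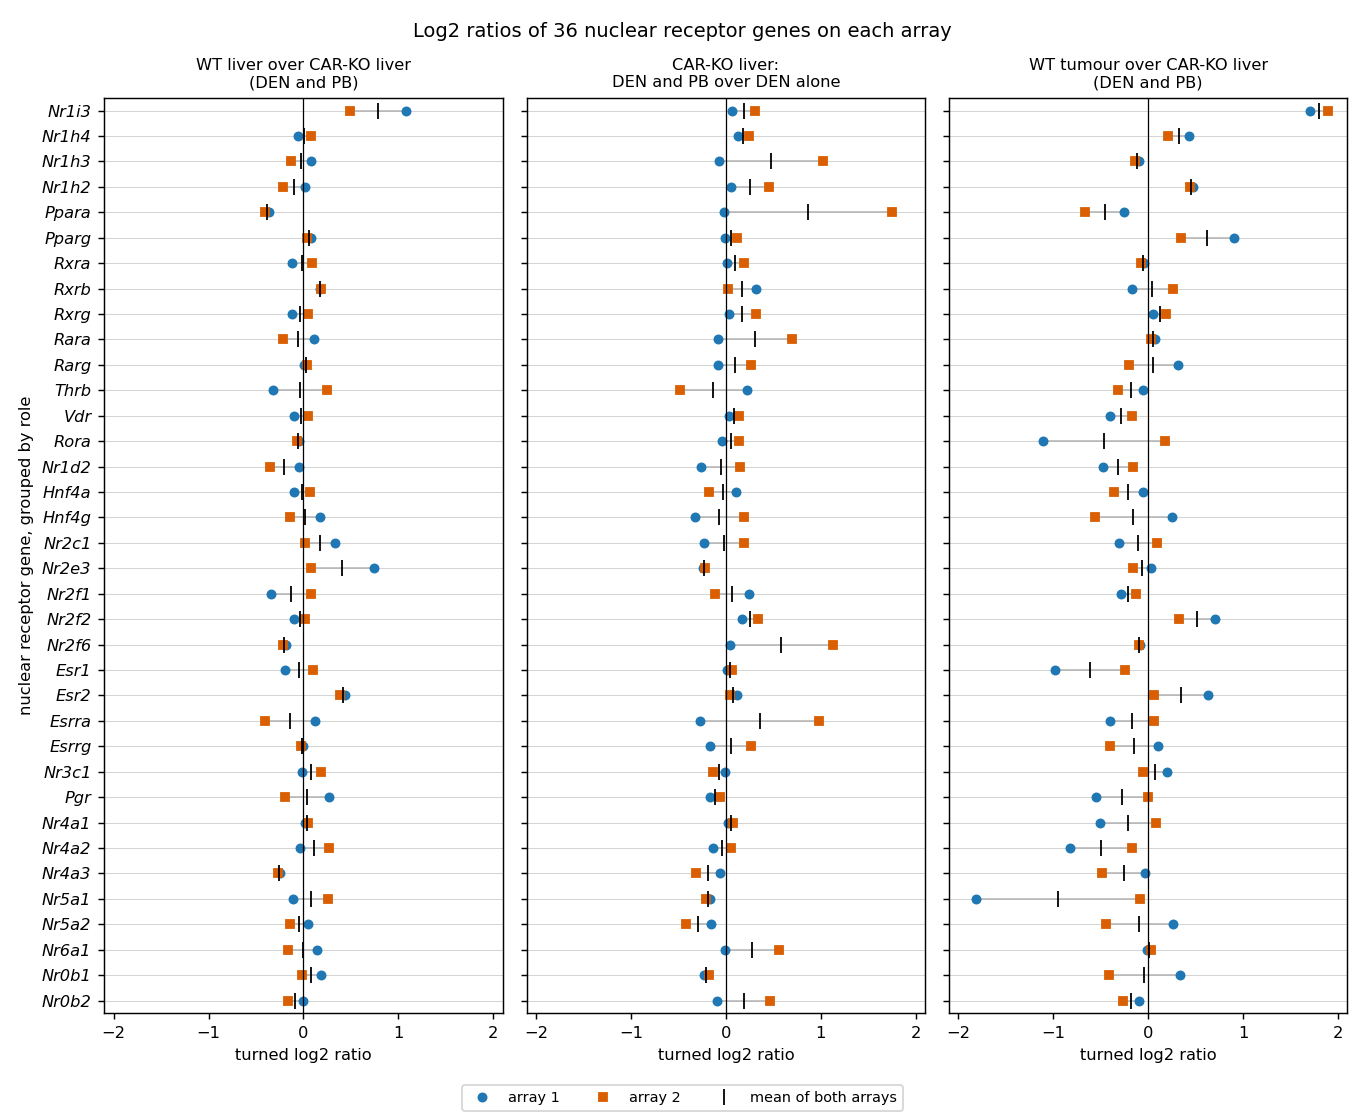
Turned log2 ratio (x axis) of each of the 36 receptor genes (y axis) on array 1 (circles) and array 2 (squares) of the 3 pairs, with the mean as a bar. Nr1i3 stands at 1.71 and 1.90 in the tumour panel, and in the middle panel array 2 lies far from array 1 for Ppara, Nr2f6, Nr1h3 and Esrra.

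Among the xenobiotic sensors, the pregnane X receptor (PXR, Nr1i2) shares many target genes and ligands with CAR. Its description-matched probe read 0.11 and 0.14 in WT liver over CAR-KO liver, and 0.08 and 0.25 for PB in CAR-KO liver. In the tumour pair array 1 was an outlier spot and was left out of the fit, so the estimate of 0.50 ± 0.26 (SE, adjusted p = 0.293) rests on array 2, which read 0.54. None of its 3 direct ratios passed.

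The bile acid receptor FXR (Nr1h4), which represses bile acid synthesis, had ratios of -0.06 and 0.08 in WT liver, 0.13 and 0.24 for PB in CAR-KO liver, and 0.43 and 0.21 in tumour. The tumour mean was 0.32 ± 0.16 (SE, n = 2, limma adjusted p = 0.258). Both tumour arrays had the same sign, and the 95% interval of the mean included 0. The oxysterol receptor LXR alpha (Nr1h3), an inducer of lipogenesis and cholesterol efflux, read 0.08 and -0.13 in WT liver, -0.07 and 1.02 for PB in CAR-KO liver, and -0.10 and -0.14 in tumour. Its PB arrays thus disagreed, with the high one being array 2. LXR beta (Nr1h2) was 0.47 and 0.44 in tumour over CAR-KO liver, with arrays close together and a mean of 0.45 ± 0.16 (SE, n = 2, adjusted p = 0.157).

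PPAR alpha (Ppara), the fatty acid sensor that drives fatty acid oxidation, read -0.36 and -0.40 in WT liver over CAR-KO liver, a mean of -0.38 ± 0.33 (SE, n = 2, adjusted p = 1). In the tumour pair it read -0.25 and -0.67 (adjusted p = 0.431). For PB in CAR-KO liver its 2 arrays read -0.02 and 1.75. The channel behind the second value was the DEN-only RNA of array 2, at a level of 8.03, where the other 11 channels lay between 9.37 and 10.15. PPAR gamma (Pparg), best known from fat cells and fatty liver, read 0.90 and 0.35 in tumour, a mean of 0.62 ± 0.18 (SE, n = 2, adjusted p = 0.111). In WT liver (0.06) and with PB in CAR-KO liver (0.06) its mean was near 0. Without array 2 of the tumour pair its tumour value was 0.94, and over the 15 alternative analyses it ran from 0.31 to 0.99. The fat cell markers Adipoq and Lep, the 2 measured of 4 listed, had mean ratios of -0.21 and -0.11 in tumour over CAR-KO liver. Their part in the Pparg value was not tested.

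RXR alpha (Rxra), the common partner of CAR, PXR, FXR, LXR and PPAR, was among the receptors with the smallest ratios. It read -0.12 and 0.09 in WT liver, 0.01 and 0.19 for PB in CAR-KO liver, and -0.04 and -0.08 in tumour. Its tumour mean was -0.06 ± 0.16 (SE, n = 2, adjusted p = 0.84), with a 95% interval that runs from -0.43 to 0.31. Rxrg lay between -0.03 and 0.18 over the 3 direct comparisons. Rxrb was well above background in 7 of 12 channels. In WT liver it was above background on both arrays, while CAR-KO liver was on none. The fitted ratio there was 0.18, with a 95% interval of -0.24 to 0.59 and a limma adjusted p of 1. No difference can be read from these readings near background.

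The receptors for retinoic acid, thyroid hormone and vitamin D gave no passing ratio among the 4 members that the rule matched (Rara, Rarg, Thrb and Vdr). In tumour over CAR-KO liver they lay between -0.28 (Vdr) and 0.06 (Rarg), with a median of -0.07. Rara, above background in 9 of 12 channels, differed between the arrays of the PB pair, at -0.08 and 0.70. The description-matched probe of Rarb, a retinoic acid receptor that is itself induced by retinoic acid through the repeat printed above, read 1.16 and 0.61 in the tumour pair. The mean was 0.88 ± 0.15 (SE, n = 2), with a limma adjusted p of 0.0247, the only 1 of the 10 description-matched probes to pass. Its tumour channels read 7.31 and 7.59, above the other 10 channels, which ran from 6.15 to 6.98. In WT liver over CAR-KO liver it was 0.12 and 0.57 (adjusted p = 1), and for PB in CAR-KO liver 0.27 and -0.28. It passed in 5 of the 15 alternative analyses. The 2 probes described as thyroid hormone receptor alpha (Thra) had tumour means of 0.13 and 0.09 (adjusted p = 0.71 and 0.791).

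The REV-ERB and ROR receptors, which oppose each other at clock gene promoters, gave no passing ratio. In tumour Rora read -1.11 and 0.18 (adjusted p = 0.272) and Nr1d2 -0.48 and -0.16 (adjusted p = 0.246). The Nr1d2 probe is named by its accession, while its deposited description calls it Thra, so its identity is uncertain. The description-matched probes of Nr1d1 (-0.89 and 0.05 in tumour) and Rorb (0.25 and 0.16) did not pass either.

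HNF4 alpha (Hnf4a), a receptor that maintains hepatocyte identity, read -0.10 and 0.07 in WT liver, 0.11 and -0.18 for PB in CAR-KO liver, and -0.06 and -0.36 in tumour. The tumour mean was -0.21 ± 0.15 (SE, n = 2, adjusted p = 0.433), with a 95% interval of -0.56 to 0.14. A lower or unchanged level can thus not be told apart at this precision. Hnf4g read 0.25 and -0.56 in tumour, with opposite signs.

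Of the orphan receptors of the NR2 group, COUP-TFII (Nr2f2), which is expressed in vessels and mesenchyme, read 0.70 and 0.32 in tumour over CAR-KO liver. Its mean was 0.51 ± 0.17 (SE, n = 2, limma adjusted p = 0.14). Its WT liver mean was -0.04. Without array 2 of the tumour pair the tumour value was 0.71, and over the 15 alternative analyses it ran from 0.30 to 0.75. The endothelial markers had a median tumour ratio of -0.08 over the 6 of 6 measured, from -0.26 to 0.10, and the stellate cell markers -0.35 over 5 of 7, with Dcn at -1.34 passing. Their part in the Nr2f2 value was not tested. Nr2f6 met the size rule for PB in CAR-KO liver, at 0.04 and 1.13, a mean of 0.58 ± 0.22 (SE, n = 2, adjusted p = 1). Array 2 alone carried that mean, for without it the value was 0.04. Nr2c1, Nr2e3 and Nr2f1 lay between -0.21 and -0.06 in tumour, and the described probes of Nr2c2 and Nr2e1 had means of -0.18 and -0.68 (adjusted p = 0.489 and 0.136).

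The glucocorticoid receptor (Nr3c1), which in hepatocytes drives gluconeogenesis, had ratios of -0.02 and 0.18 in WT liver, -0.01 and -0.14 for PB in CAR-KO liver, and 0.20 and -0.05 in tumour. Its means stayed between -0.08 and 0.08 in the 3 direct comparisons. Estrogen receptor alpha (Esr1) read -0.98 and -0.24 in tumour, a mean of -0.61 ± 0.20 (SE, n = 2, limma adjusted p = 0.141). Without array 2 its value was -1.04 (adjusted p = 0.0066) and without array 1 it was -0.18 (adjusted p = 0.854). Estrogen receptor beta (Esr2) read 0.44 and 0.39 in WT liver over CAR-KO liver, with an unadjusted p of 0.0431 and an adjusted p of 1. The progesterone receptor (Pgr) was above background in 9 of 12 channels. It read -0.55 on array 1 of the tumour pair, while on array 2 neither channel was well above background, so its value of 0.00 there, which entered the fit and the plot, is background over background.

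The estrogen-related receptors Esrra and Esrrg, regulators of mitochondrial genes, had tumour means of -0.17 and -0.15. Esrra read -0.27 and 0.98 for PB in CAR-KO liver, again with array 2 high. The description-matched Esrrb probe read -0.67 and -0.15 in tumour (adjusted p = 0.172).

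The NR4A receptors are immediate early genes that act without a known natural ligand. In tumour over CAR-KO liver Nr4a1 averaged -0.22, Nr4a2 -0.50 and Nr4a3 -0.26, and in WT liver over CAR-KO liver they averaged 0.04, 0.12 and -0.26. None passed. Nr4a2 had the lowest adjusted p of the 3, 0.183 in tumour, from -0.82 and -0.17.

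Steroidogenic factor 1 (Nr5a1), known from the adrenal gland and the gonads, had the largest ratio below 0 in the family. In tumour over CAR-KO liver it read -1.81 on array 1 and -0.09 on array 2, a mean of -0.95 ± 0.33 (SE, n = 2, limma adjusted p = 0.15). Nearly the whole value came from 1 channel, the CAR-KO RNA of array 1, at a level of 8.25 where the other 11 channels ran from 6.44 to 6.98. Without array 1 the ratio was 0.01, and without array 2 it was -1.91 (adjusted p = 0.000127). That same channel gave the highest of 12 levels for 9 of the 36 receptors (Esr1, Esrra, Nr1d2, Nr2f1, Nr4a2, Nr5a1, Pgr, Ppara and Rora) and the lowest for 7. Here too the count was not made over all probes. Nr5a2, the liver counterpart of Nr5a1 and an activator of bile acid synthesis, read 0.26 and -0.45 in tumour. Nr6a1 was above background in 4 of 12 channels.

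The receptors that lack a DNA-binding domain act as corepressors of other receptors. SHP (Nr0b2), which FXR induces, read -0.01 and -0.16 in WT liver, -0.09 and 0.47 for PB in CAR-KO liver, and -0.10 and -0.27 in tumour. Its tumour mean was -0.19 ± 0.18 (SE, n = 2, adjusted p = 0.552). Nr0b1 read 0.33 and -0.41 in tumour, with opposite signs.

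**Figure D3:**
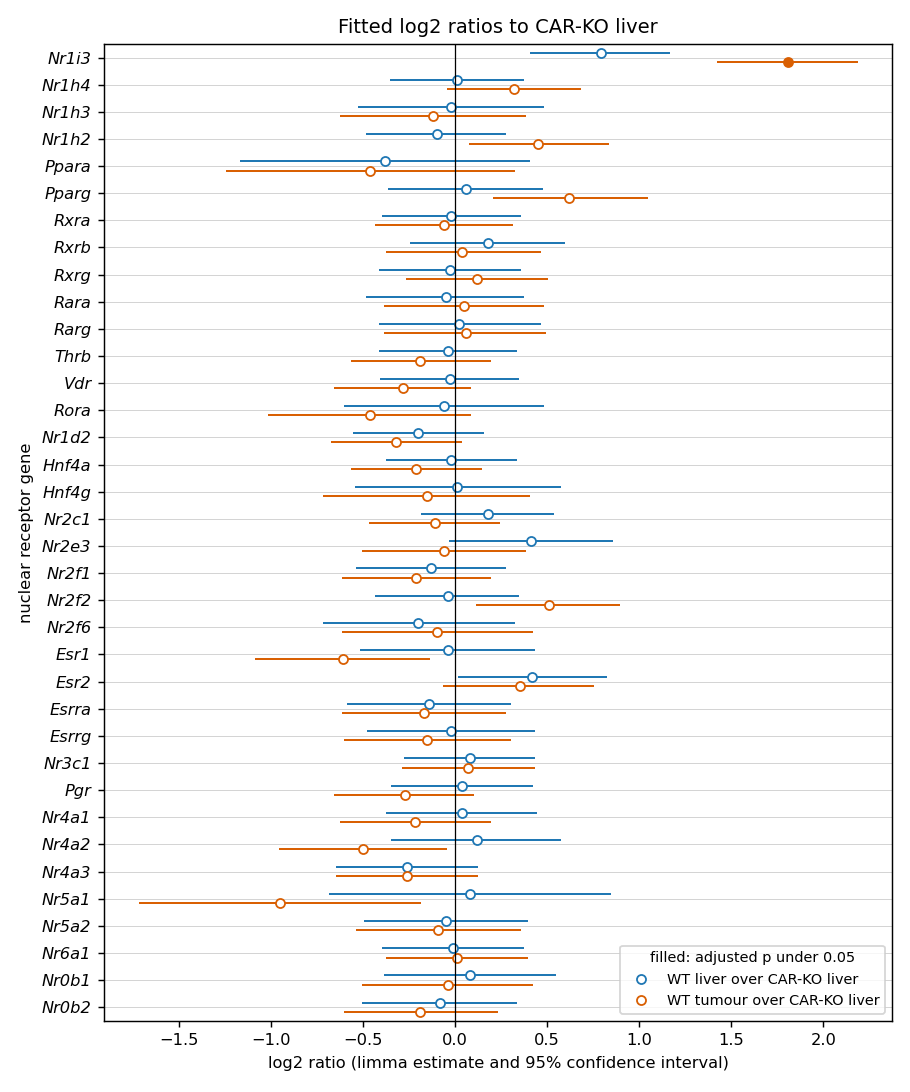
Fitted log2 ratio to CAR-KO liver (x axis, limma estimate with its 95% confidence interval) for each of the 36 receptor genes (y axis) in WT liver and in WT tumour, all with PB. Filled points have an adjusted p under 0.05, and the single filled point is Nr1i3 in tumour at 1.81.

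Genes that CAR and PXR are known to induce were followed next to the receptors. This list was chosen with earlier results of these data known, so its counts are not an independent test. Of 12 measured, 9 passed as higher in WT liver over CAR-KO liver (median 2.09), where 0.0916% of all probes did, and 10 in tumour (median 2.22), where 2.53% did. For PB in CAR-KO liver 0 of 12 passed by limma, where 0% of all probes did. The median of the 12 was 0.13, and 11 of them lay above 0, against 47.7% of all probes. At an unadjusted p under 0.05 there were 2 of the 12, against 2.72% of all probes. Leaving out either array of the CAR-KO pair left 5 of 12 in WT liver, where 0.0386% of all probes passed. Without either WT liver array that pair rests on 1 array, so no count is given. The signals processed by the Agilent software gave 0 in WT liver and in tumour, where 0% of all probes passed. The largest in WT liver were the cytochrome P450 genes Cyp2b9 (4.89 and 4.64, adjusted p = 0.000382), Cyp2b13 (4.02 and 3.21), Cyp2c37 (3.17 and 3.20) and Cyp2c55 (2.71 and 2.63). In tumour they were Cyp2b13 (4.28 and 4.85, adjusted p = 9.1e-05), Cyp2b9 (3.87 and 4.59), Cyp2c55 (3.52 and 3.64) and the glutathione transferase Gstm2 (3.54 and 3.27). Each array pair agreed in sign for these genes. Cyp2b and Cyp2c genes have near-identical copies whose signals a probe can share. Cyp3a11 read 0.73 and 2.11 for PB in CAR-KO liver, a mean of 1.42 that did not pass (adjusted p = 1).

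Among the genes of cytoplasmic partners of CAR and steroid receptors, general chaperones included, 2 of 10 passed, both higher in tumour, where 2.53% of all probes passed as higher. They were the chaperones Hsp90aa1 (1.36 and 1.08, adjusted p = 0.0216) and Hspa8 (0.53 and 1.01, adjusted p = 0.0399). The median of the 10 was 0.44, with 9 of 10 above 0, where the median of all probes was -0.006. Dnajc7, a CAR-retaining co-chaperone, read 0.35 and 0.48 (adjusted p = 0.181). Of 11 coactivators 1 passed, Ppargc1b, at -1.18 and -0.69 in tumour (adjusted p = 0.0261), and of 8 corepressors 0 did by limma, where 3.36% of all probes passed. At an unadjusted p under 0.05 there were 3 of the 8 corepressors, against 23.4% of all probes.

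Enzymes that make or clear receptor ligands passed at 5 of 14 in tumour, 3 higher and 2 lower, where 3.36% of all probes passed. Cyp7b1, which clears oxysterols, read -1.64 and -1.56 (adjusted p = 0.0049), and Hsd11b1, which regenerates active glucocorticoid, read -1.20 and -0.95 (adjusted p = 0.0185). The retinoid enzymes Aldh1a1 (1.37 and 1.07, adjusted p = 0.00866) and Rdh11 (a mean of 1.05, adjusted p = 0.0227) were higher, as was Aldh1a7 at 0.87.

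Genes known as targets of other receptors were counted in tumour over CAR-KO liver against the same 3.36% of all probes. Of LXR targets 1 of 7 passed, lipoprotein lipase (Lpl, 1.88 and 2.05, adjusted p = 0.00341), and of PPAR alpha targets 2 of 12, Pdk4 (a mean of 1.38) and Acot1 (0.96 and 1.46). Of thyroid hormone targets 1 of 5 passed, malic enzyme (Me1, 0.53 and 1.68, adjusted p = 0.0482). Of 8 glucocorticoid targets, Igfbp1 was higher (2.24 and 1.91) and Pck1 (-1.65 and -1.94) and Mt1 (-0.81 and -1.18) were lower, so 3 passed, 1 higher and 2 lower. Of 13 clock and REV-ERB genes 1 passed, the fatty acid elongase Elovl3, at -0.93 and -1.32 (adjusted p = 0.0104). Of 12 immediate early genes 1 passed, Jun, at 1.03 and 1.92 (adjusted p = 0.0182). Of the 7 FXR targets 0 passed by limma and 3 had an unadjusted p under 0.05, with a median of -0.19. Of the 6 HNF4A targets likewise 0 passed and 3 had an unadjusted p under 0.05, with a median of -0.46, and 0 of the 6 lay above 0. Of all probes, 23.4% had an unadjusted p under 0.05 in this comparison and 49.4% lay above 0. These counts changed with the processing. Over the alternative analyses the PPAR alpha targets ran from 0 to 7, the cytoplasmic partners from 0 to 5, the ligand enzymes from 0 to 8 and the FXR targets from 0 to 2, with 0 of each under the signals processed by the Agilent software, where 0% of all probes passed, and the highest counts under median centring, where 20% did. Leaving out array 2 of the tumour pair, where 22.7% of all probes passed, gave the same counts for the ligand enzymes and the FXR targets.

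Like the list of CAR and PXR targets, the other lists were chosen with earlier results of these data known. They held 107 measured genes in all. In tumour over CAR-KO liver 17 of them passed, 15.9% against 3.36% of all probes, and 50 had an unadjusted p under 0.05, 46.7% against 23.4%. In the other comparisons 0 of the 107 passed by limma. Of all probes, 0.101% passed in WT liver over CAR-KO liver. For PB in CAR-KO liver and in the indirect comparison 0% of all probes passed, so 0 of 107 there says nothing about these lists. At an unadjusted p under 0.05 there were 12 of the 107 in WT liver over CAR-KO liver, 11.2% against 2.27% of all probes. For PB in CAR-KO liver there were 11, 10.3% against 2.72%, and in tumour over WT liver, taken indirectly, 22, 20.6% against 8.37%.

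**Figure D4:**
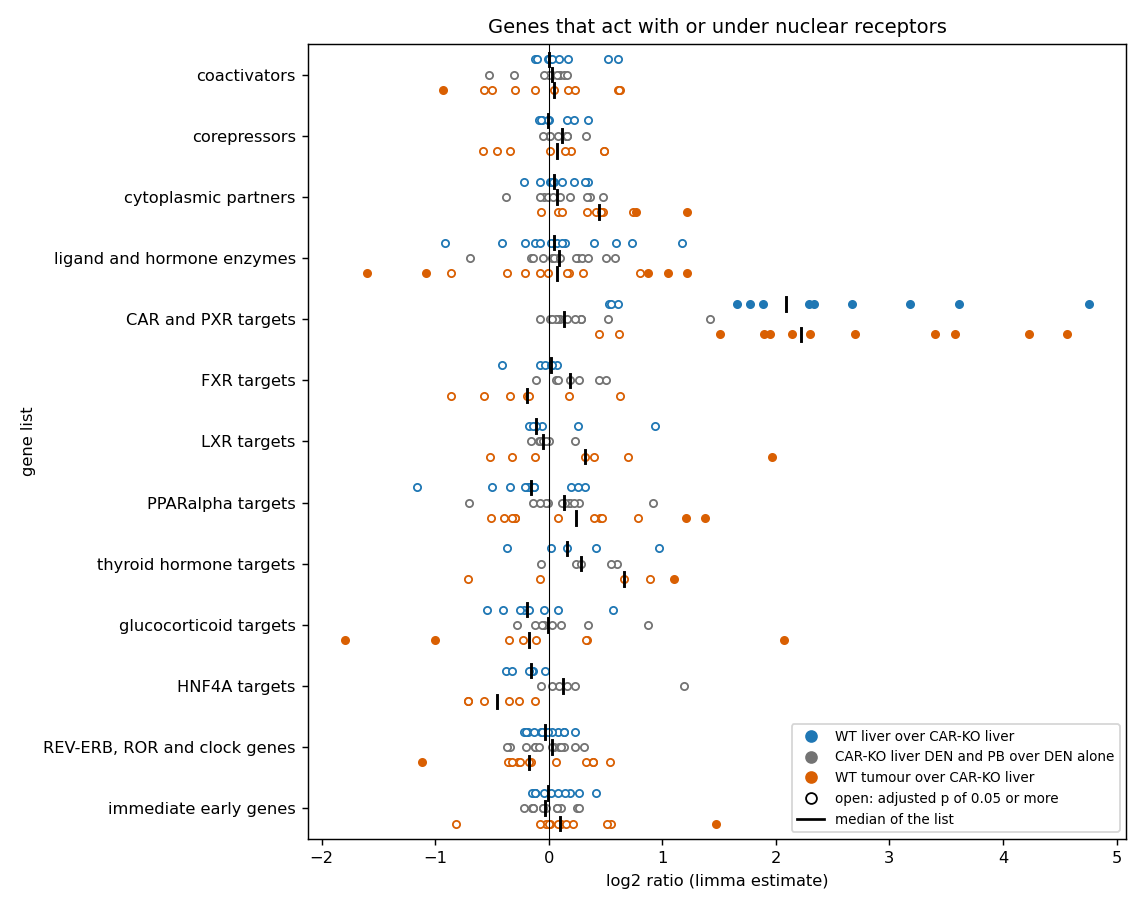
Log2 ratio (x axis, limma estimate) of each measured gene of the 13 lists (y axis) in the 3 direct comparisons, with the median of each list as a bar. Filled points have an adjusted p under 0.05. Filled points of the CAR and PXR targets number 9 in WT liver and 10 in tumour, with medians of 2.09 and 2.22.

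In tumour over CAR-KO liver, Krt19 of the cholangiocyte list was higher (1.13, adjusted p = 0.0135; 1 of 5 measured) and Dcn of the stellate cell list lower (-1.34, adjusted p = 0.0159; 1 of 5), where 3.36% of all probes passed. Of 6 endothelial, 5 macrophage, 6 lymphocyte and 2 adipocyte markers, and of 4 hepatocyte markers, 0 passed by limma. Among these, 2 of the macrophage and 1 of the lymphocyte markers had an unadjusted p under 0.05, where 23.4% of all probes did. Their part in the receptor values was not tested.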

How the data were processed

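Each deposited scanner file gives mean signal and local background intensity per spot, the authors' readings without normalization, next to signals processed by Agilent Feature Extraction (7.1.1 on 5 arrays and 7.5.1 on 1 per the file headers; 7.5 per the submitters' processing notes). The deposited log10 ratio and the value table were the same (largest difference 0). The remaining deposited columns used were spot flags. Labelling started from total RNA per the labels' protocols.

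Here, signals were corrected with normexp (offset 50) and loess within each array, control and outlier spots had weight 0, and outlier spots were set to missing. The 22393 spots gave 20868 probes, of which 20744 had at least 1 channel well above background on at least 2 arrays. limma 3.58.1 (R 4.3.3) was fitted on all 6 arrays with 3 pair coefficients and a dye effect per probe, 2-sided, with 2 residual and 5.48 prior degrees of freedom. The fit was tested on simulated data. Single-channel levels were scaled between arrays (Aquantile) and are open to dye bias. Probes were named through RefSeq accessions (8947), symbols in descriptions (386) and older symbols (277). Every receptor was named, with both array values where it passed, met the size rule (0.5) or belonged to a set of 9 liver receptors; up to 4 passing genes were named per list. Receptors and the 13 lists were chosen with earlier results of these data known. Other background corrections, centring, weights, filters and left-out arrays were tried.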

Additional observations from a re-analysis of the deposited data

Results flagged for a closer look

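The Rarb probe, which lay outside the rule because only its description names the gene, passed in WT tumour over CAR-KO liver, at 0.88 with a limma adjusted p of 0.0247.

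For each of the 36 receptors, the levels in the 6 channels of CAR-KO liver with PB were searched for a channel that stood apart from the other 5, by Dixon's ratio. Chance flags about 1 in 20 where the 6 channels are alike, and 6 of 36 were found. These channels differ in array, dye and background, so that rate need not hold here. The search was not made over all probes, so no excess among receptors can be read from the count. On array 1 of the tumour pair (Cy3), Nr5a1 was at 8.25 where the next channel was at 6.98, Rora was at 8.12 with the next at 7.13, and Nr4a3 was lowest at 6.73. On array 2 of the CAR-KO pair (Cy3), Rara was at 7.01 with the next at 6.36, and Nr6a1 was at 6.62 with the next at 6.04. Vdr was lowest on array 2 of the tumour pair (Cy5), at 8.16 with the next at 8.61.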

How the results depend on the processing

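In total 15 alternative analyses were run. Each changed 1 choice, with the following exceptions. The Agilent software's signals replace background correction, offset and loess together. Leaving out background subtraction also drops the offset, and a fit on the arrays of 1 pair also drops the dye effect. The cause of each change was not tested, apart from the smaller number of arrays or probes that an alternative itself sets.

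With Agilent's own processed signals, 0 probes passed in WT liver, and 0 probes and 0 receptors in tumour. With median centring, 6 receptors and 4156 probes passed in tumour and 47 probes in the indirect comparison. An offset of 16 left 289 probes in tumour. Array weights gave 1 receptor (Nr1i3) and 87 probes in WT liver, 1 probe for PB in CAR-KO liver and 227 in tumour. Requiring both channels above background on all arrays gave 1 probe for PB. With only the arrays of the pair, 87 probes passed in WT liver, and 62 probes and 0 receptors in tumour.

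Leaving out 1 array at a time, the receptors that passed numbered 0 to 1 in WT liver, 1 to 7 in tumour and 0 to 6 in the indirect comparison. The probes numbered 4 to 94 in WT liver, 0 to 6 for PB, 285 to 4708 in tumour and 0 to 2164 in the indirect comparison, with the highest tumour and indirect counts without array 2 of the tumour pair. A pair left with 1 array assumes that it varies like the others. The Ppara ratio for PB ran from -0.11 without array 2 to 1.85 without array 1, and the Nr5a1 tumour ratio from -1.91 to 0.01. Each ratio already sets the RNAs of 1 array against each other; no block across pairs was fitted, since the labels give no replicate numbers and those used here only name arrays in accession order.

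In tumour Nr1i3 stayed above 0 in 15 of 15 alternatives, from 1.18 to 2.41, and passed in 13.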
